A study of Homo sapiens with 9 samples.

Results

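CDC26 is a small subunit of the anaphase-promoting complex, and it was followed here with 9 other genes of the same complex: CDC16, CDC23, CDC27, ANAPC1, ANAPC4, ANAPC5, ANAPC7, ANAPC10 and the coactivator FZR1. CDC26 was chosen by its own change on these arrays, a lower signal after one of the transfections. The other genes were taken as its partners in the complex, to see whether they moved with it. Every probe set annotated to one of these genes alone was used, which gave 26 of the 54675 probe sets of the array, and 25 of the 26 passed a filter on dim signals. They cover 9 of the 10 genes. ANAPC1 had 3 probe sets, all of them shared with ANAPC1 pseudogenes, so its own level was not measured by this rule.

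The samples were SW1783 cells, an established human glioma line, transfected with synthetic miRNA duplexes at 50 nM and harvested after 24 h. There were 3 groups, transfected with miR-376a*A (called A-form cells here), with miR-376a*G (G-form cells) and with the control duplex miR-control (control cells), and 3 arrays of each from biological replicates per the labels. All groups share the line, the lipid reagent, the dose and the time, and no untransfected cells are among these samples. RNA from each culture was measured as a whole, so less RNA in every cell and loss of RNA from a part of the cells cannot be told apart, and protein was not measured.

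The anaphase-promoting complex is a ubiquitin ligase that marks mitotic proteins for destruction by the proteasome and thereby lets chromosomes separate and cells leave mitosis. It is built from a platform of scaffold proteins, an arc of proteins with tetratricopeptide repeats, and a catalytic module, and it works with a coactivator that brings the substrates. CDC26 is known to bind and stabilise the repeat protein CDC16. A miRNA lowers the RNA of its targets mainly by pairing of its seed with the target, and the A and G forms of miR-376a* stand for the unedited and the edited state of a base in that seed.

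The mature miRNA is shown because the transfected duplexes are forms of it. miR-376a* is an older name of hsa-miR-376a-5p, and its genomic sequence in RefSeq (gene MIR376A1, GRCh38.p14, chr14:101040788-101040809, plus strand) is printed 5′ to 3′ with the seed, bases 2 to 8, in capitals. Which base was changed in the G form is not given in the sources used here, so its sequence is not shown.
hsa-miR-376a-5p: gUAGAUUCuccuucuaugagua

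Control replicate 1 stood apart from the other arrays, reaching a rank correlation of at most 0.941 with the rest, while each of the others reached 0.969 or more. In the marker check, CD44 and VIM, which glioma lines often express, were bright (median signals of 2196 and 2390), whereas the astrocyte genes GFAP and S100B did not exceed 3.75 and 2.64 on any array, and NES, at a median of 13.8, and AQP4, at 5.48, were also below the filter. Of the 7 glioma and astrocyte markers 3 passed the filter, and of 6 markers of other cell types 2 passed it, PECAM1 and RBFOX3. The summed signal of the 7 glioma and astrocyte markers was 4422 to 5066 in A-form cells, 4402 to 4859 in G-form cells and 4447 to 7572 in control cells. That of the 6 other markers was 128 to 149.9 in A-form cells, 119 to 121 in G-form cells and 122 to 197 in control cells, and for both lists control replicate 1 was the highest. None of the tested marker genes passed limma's test between groups, and the part of the marker levels in the results was not tested. SOX2 (-0.13 and -0.16 on the log2 scale in A-form cells and G-form cells against control), VIM (-0.08 in A-form cells against G-form cells) and PECAM1 (-0.18, -0.45 and 0.27 in the same 3 comparisons) showed the largest differences of their lists.

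CDC26 was low on all 3 G-form arrays and on no other. Its only probe set gave signals of 692, 693 and 825 in A-form cells, 239, 222 and 199.9 in G-form cells, and 756, 726 and 560.1 in control cells. The lowest array outside the G-form group was thus control replicate 3, and the A-form and control arrays overlapped. The group means were 737 ± 76.3 in A-form cells, 220.3 ± 19.7 in G-form cells and 681 ± 105 in control cells (SD, n = 3 each).

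On the log2(signal + 16) scale after quantile normalization, CDC26 differed by -1.57 (SE 0.13) between G-form cells and control, which is 2.97-fold lower. In A-form cells it was 0.10 (SE 0.13) above control, and it was 1.67 (SE 0.13) higher in A-form cells than in G-form cells, or 3.18-fold. Among 12505 genes the difference of CDC26 between G-form cells and control was the 5th lowest, and its difference between the forms was the 2nd highest. Because CDC26 was chosen for these differences, they are given as a description, without a test. When each array was left out in turn, the difference between G-form cells and control lay between -1.70 and -1.49 and that between the forms between 1.60 and 1.73. These comparisons share arrays: the G-form arrays enter both large differences, and the control arrays enter both comparisons with control.

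**Figure D1:**
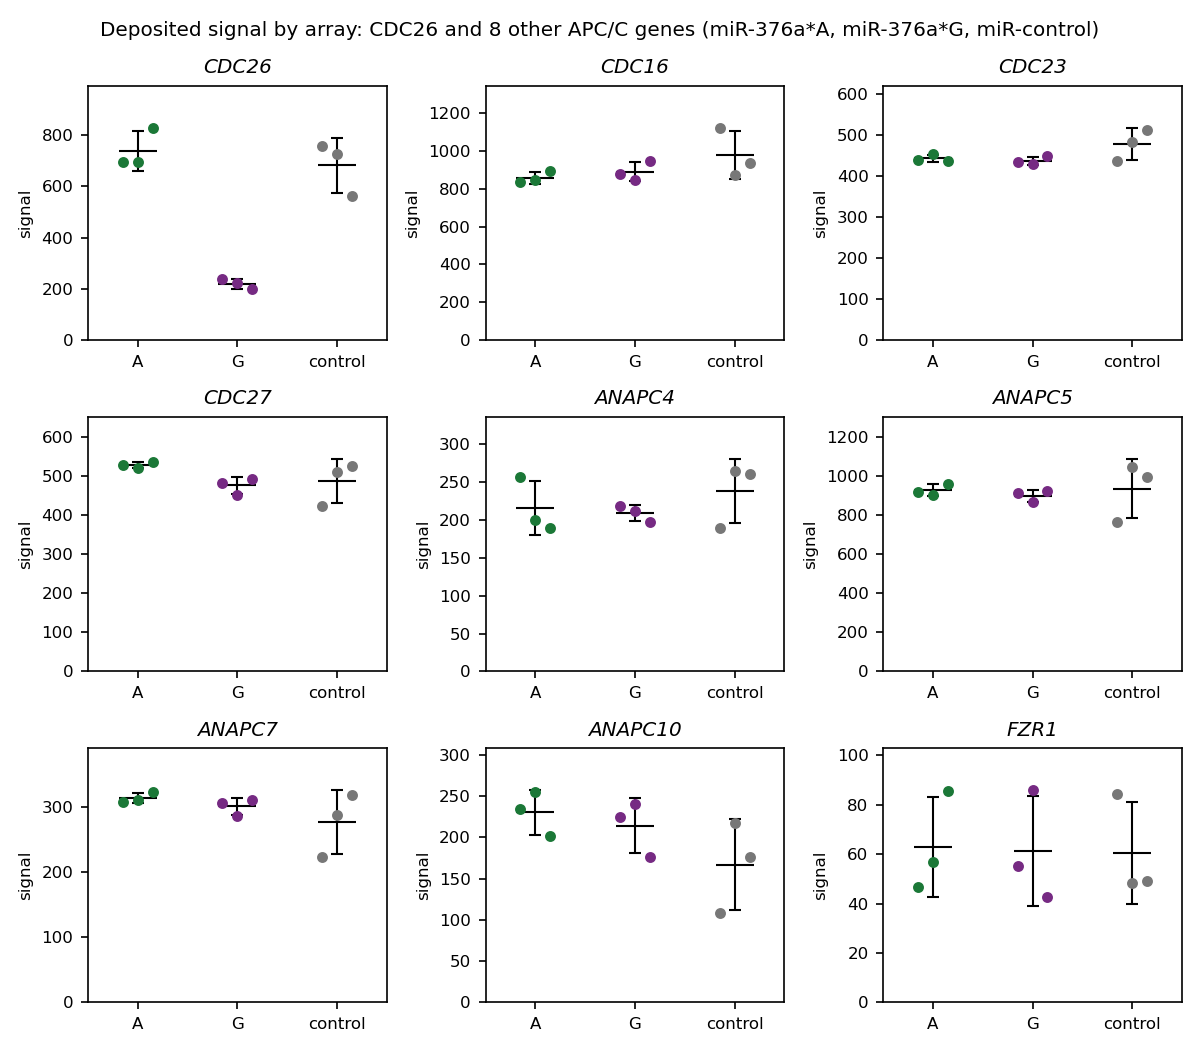
Deposited signal on each of the 9 arrays (vertical axis, signal units, from 0; scales differ between panels) for the brightest probe set of CDC26 and the 8 other measured genes of the complex, by transfection (A, G, control); points are arrays, the horizontal bar is the mean and the error bar the SD of 3 arrays. CDC26 lies between 199.9 and 239 on the G-form arrays and at 560.1 or more on all others, whereas in the other panels the G and control arrays overlap.

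None of the 8 other measured genes matched the loss of CDC26. Each of the 8 other genes was represented by its brightest probe set and tested with limma across all 12505 genes. Between G-form cells and control 0 of the 8 passed an adjusted p of 0.05, and 0 had an unadjusted p under 0.05, where 4.62% of all genes passed the adjusted threshold. Their limma adjusted p ran from 0.396 to 0.973. The differences of the 8 genes lay between -0.18 and 0.36, with a median of -0.07 (all genes: 0.01). The lowest end of any of their 95% intervals was -0.55, for FZR1, so a fall as large as that of CDC26 lay outside the interval of each of the 8 genes. For 0 of the 8 brightest probe sets were the signals of the treated and control arrays fully separated, in A-form or in G-form cells. Of all genes, 10.5% were separated upward and 9.02% downward in A-form cells, and 11.4% and 9.72% in G-form cells. Among dimmer sets, one of CDC23 was separated upward in both forms and one of CDC27 in G-form cells. A dimmer set each of ANAPC4, ANAPC5 and FZR1 was separated downward in A-form cells. The share of all probe sets so separated was not counted.

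**Figure D2:**
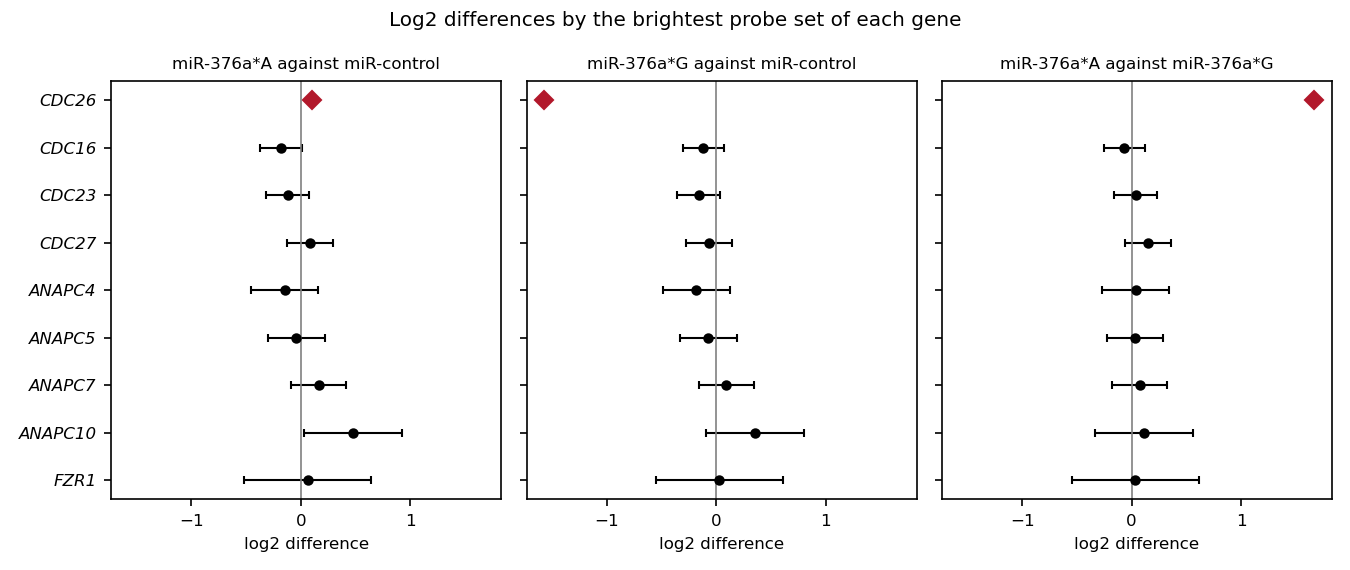
Log2 difference (horizontal axis) for the brightest probe set of each gene in the 3 comparisons, with 95% intervals of the limma fit for the 8 genes other than CDC26; CDC26, chosen for its differences, is drawn as a diamond without an interval. The intervals of the 8 genes lie between -0.55 and 0.92, and CDC26 lies at -1.57 and 1.67 in the comparisons that involve G-form cells.

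CDC16, the repeat protein that CDC26 binds, gave signals of 833, 843 and 894 in A-form cells, 876, 847 and 947 in G-form cells, and 1117, 873 and 935 in control cells. The highest value was that of control replicate 1, and the groups overlapped. Its difference from control was -0.18 in A-form cells (95% interval -0.37 to 0.01, limma adjusted p = 0.356) and -0.12 in G-form cells (-0.31 to 0.07, adjusted p = 0.525). Its other probe sets gave -0.13 and -0.05 in A-form cells and -0.11 and -0.19 in G-form cells. All 3 were thus slightly below control on average, with no call. The dimmest of the 3 was at 674, 598 and 477 in A-form cells, 549, 510 and 532 in G-form cells, and 350, 767 and 742 in control cells. There control replicate 1 was the lowest of the 9 arrays and control replicates 2 and 3 the highest.

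CDC27, the repeat protein that receives the tails of the coactivators, had signals of 529, 519 and 535 in A-form cells, 482, 452 and 493 in G-form cells, and 423, 509.9 and 527 in control cells. It was the only one of the 8 genes whose arrays did not overlap between the forms, higher on every A-form array than on any G-form array. Among all genes 13.6% were separated in that direction and 14.8% in the other, and the difference of 0.15 (95% interval -0.06 to 0.36) did not pass limma's test (adjusted p = 0.720). Against control CDC27 was at 0.09 in A-form cells and -0.06 in G-form cells (limma adjusted p = 0.735 and 0.793), and its 3 other probe sets lay between 0.07 and 0.50 and between 0.01 and 0.38, none past the threshold. CDC27 has 11 pseudogenes by name in the RefSeq gene table, and its 4 probe sets may pick up their RNA. By the same count CDC26 and ANAPC10 have 1 each, and whether their probe sets also pick up its RNA was not tested.

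ANAPC7, a further repeat protein, was at 308, 311 and 324 in A-form cells, 307, 287 and 312 in G-form cells, and 223, 288 and 319.6 in control cells. Here the lowest value was again that of control replicate 1. Its differences from control were 0.17 in A-form cells (95% interval -0.09 to 0.42) and 0.09 in G-form cells (-0.16 to 0.34). Neither of them passed the threshold in limma (adjusted p = 0.563 and 0.736). A dimmer ANAPC7 probe set gave 0.11 and 0.24, with no call.

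CDC23, another protein of the repeat arc, has a pair of probe sets that disagreed. The brighter gave 439.6, 453 and 438 in A-form cells, 434, 428 and 448 in G-form cells, and 435, 484 and 512 in control cells, differences from control of -0.12 (95% interval -0.32 to 0.08) and -0.16 (-0.36 to 0.04), with limma adjusted p of 0.594 and 0.396. The dimmer gave 168, 126 and 114 in A-form cells, 146, 161 and 141 in G-form cells, and 38.9, 88.1 and 70.1 in control cells, so that every treated array lay above every control array. In the fit over 27338 probe sets it rose by 1.12 (SE 0.23) in G-form cells (limma adjusted p = 0.0268). In A-form cells it was 1.00 (SE 0.23) above control without passing (adjusted p = 0.0534). The identifier of the dimmer probe set carries the suffix that Affymetrix gives to sets whose probes may also match other transcripts.

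That rise of the dimmer CDC23 probe set did not hold in every setting. With the replicate number as a block its limma adjusted p in G-form cells was 0.0594, and leaving out G-form replicate 1, 2 or 3 or A-form replicate 2 gave 0.101, 0.117, 0.0935 or 0.0545. Without control replicate 1, its lowest array, the rise was 0.84 (adjusted p = 0.00361) in G-form cells and 0.72 (adjusted p = 0.00956) in A-form cells. Without control replicate 2 the rise in A-form cells was 1.22 (adjusted p = 0.0238).

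The scaffold genes showed no call with all arrays. ANAPC4 was at 256, 199.8 and 189.8 in A-form cells, 219, 211 and 198 in G-form cells, and 189.6, 264 and 259.9 in control cells. The treated and control arrays overlapped. The differences of ANAPC4 from control were -0.14 in A-form cells and -0.18 in G-form cells (limma adjusted p = 0.692 and 0.541). A dimmer ANAPC4 probe set gave -0.20 and -0.14, with no call. On that set every A-form array was below every control array, and its identifier carries the suffix described for the dimmer CDC23 set. ANAPC5 was at 919, 899.8 and 959 in A-form cells, 909.9, 865 and 920.3 in G-form cells, and 764, 1046 and 992 in control cells. Control replicates 2 and 3 lay above all treated arrays and control replicate 1 below them.

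In G-form cells the call of ANAPC5 depended on control replicate 1. With all arrays its differences from control were -0.04 in A-form cells (95% interval -0.30 to 0.22) and -0.07 in G-form cells (-0.33 to 0.19), with limma adjusted p of 0.917 and 0.806. Without control replicate 1 the difference in G-form cells was -0.22 and passed (adjusted p = 0.0245). That made ANAPC5 the 1 of 8 genes called there, in a fit that called 17.3% of all genes. In A-form cells the difference was then -0.19 and did not pass (limma adjusted p = 0.053). Without control replicate 2 or 3 it was 0.04 or 0.03 in A-form cells. All 5 tested probe sets of ANAPC5 lay between -0.19 and 0.06 in the comparisons of A-form cells and G-form cells with control, and 1 further probe set, with signals of 9.6 to 18.8, was too dim to be tested. The 3 probe sets shared by ANAPC1 and its pseudogenes lay between -0.34 and 0.05 against control, with no call, and cannot be assigned to ANAPC1.

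ANAPC10, which helps the complex to recognise its substrates, had signals of 234, 255 and 202 in A-form cells, 225, 240.5 and 177 in G-form cells, and 108, 217 and 176 in control cells. Control replicate 1 was the lowest array and the groups overlapped. The difference from control was 0.47 in A-form cells (95% interval 0.03 to 0.92, limma adjusted p = 0.304) and 0.36 in G-form cells (-0.09 to 0.80, adjusted p = 0.405). These differences were 0.25 and 0.14 without control replicate 1, and 0.21 and 0.12 with array weights. A second, dimmer ANAPC10 probe set gave 0.05 and 0.26, with no call. FZR1, also called CDH1, is the coactivator that keeps the complex active after mitosis and through G1. It was dim and spread alike in all groups: 46.5, 56.9 and 85.7 in A-form cells, 55.3, 85.8 and 42.9 in G-form cells, and 84.4, 48.2 and 49.1 in control cells. The 95% intervals of this probe set against control reached from -0.55 to 0.64. A dimmer FZR1 probe set varied less, with intervals of -0.20 to 0.27 in A-form cells and -0.27 to 0.20 in G-form cells. Another was -0.41 from control in A-form cells, where each array was below each control array, without passing in limma (adjusted p = 0.374), and the last was 0.16 and 0.03 above control.

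Against control, 0 of the 8 genes likewise passed in A-form cells (limma adjusted p of 0.304 to 0.945), and only ANAPC10 had an unadjusted p under 0.05, where 3.33% of all genes passed the adjusted threshold. The 8 differences lay between -0.18 and 0.47, with a median of 0.01 (all genes: 0.01). Between A-form cells and G-form cells 0 of 8 passed in limma, 0 had an unadjusted p under 0.05 and 2.63% of all genes passed. The differences lay between -0.06 and 0.15 with a median of 0.04 (all genes: 0.00).

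By probe set, 24 sets of the 8 genes were tested besides that of CDC26. In G-form cells against control 1 was higher, the dimmer set of CDC23, and 0 were lower, where limma called 3.44% of all probe sets. In A-form cells against control 0 passed, where 2.49% of all probe sets did, and between the forms 0 passed, where 1.84% did. At an unadjusted p under 0.05 in limma there were 2 in A-form cells against control and 0 between the forms. The share of all probe sets at that level was not counted. The median difference of the 24 sets was 0.04 in A-form cells, -0.03 in G-form cells and 0.03 between the forms. Without control replicate 1, 3 of the 24 sets were called in G-form cells, 1 higher and 2 lower, and 1 was called higher in A-form cells. Of all probe sets, that fit called 13.3% in G-form and 10.1% in A-form cells.

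**Figure D3:**
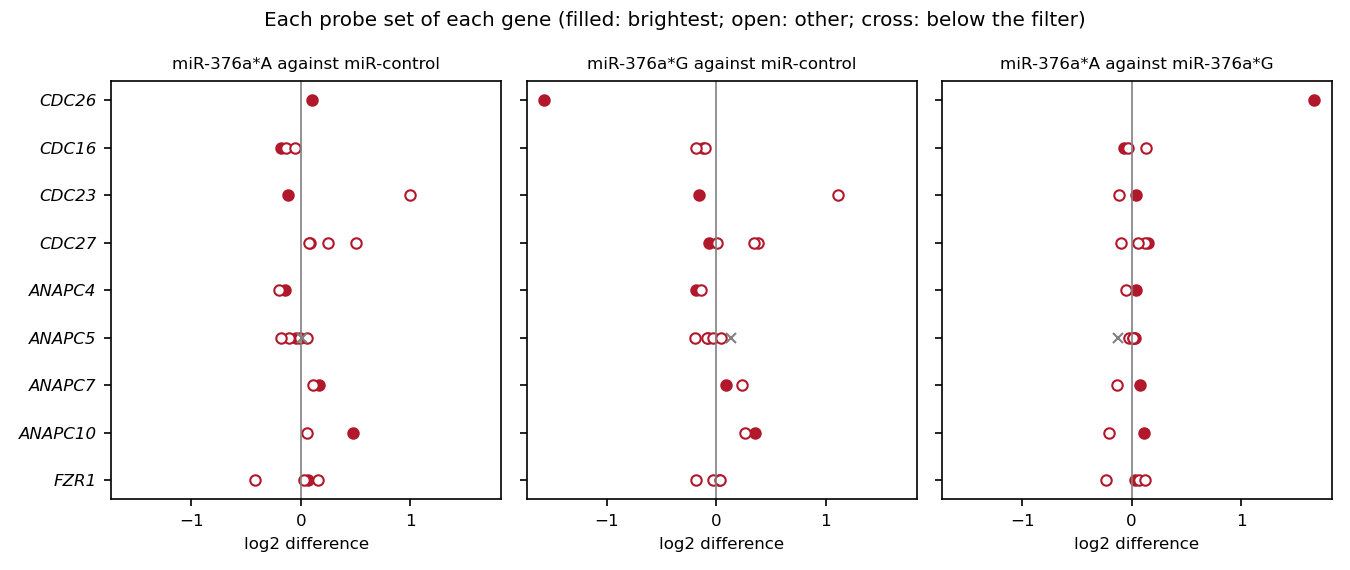
Log2 difference (horizontal axis) of each of the 26 probe sets in the 3 comparisons, a row per gene; filled circles are the brightest set of a gene, open circles the others, and the cross is the ANAPC5 set below the filter. Apart from CDC26 in G-form cells, the points farthest from 0 against control are those of the dimmer CDC23 set at 1.00 and 1.12.

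Of the other subunits of the complex and the mitotic coactivator CDC20, all 6 were measured, and 1 rose with both forms, ANAPC13, a small subunit bound to the repeat arc (limma called 1.95% of all genes higher in A-form cells and 2.5% in G-form cells). ANAPC13 gave signals of 1291, 1370.0 and 1443 in A-form cells, 1493, 1429 and 1526 in G-form cells, and 964, 886 and 925 in control cells. Every treated array was above every control array. The rise was 0.54 (SE 0.06, 1.46-fold, limma adjusted p = 0.00133) in A-form cells and 0.71 (SE 0.06, 1.63-fold, adjusted p = 0.000345) in G-form cells. It kept its call in each of the 18 alternatives tried for each comparison, with adjusted p of at most 0.0151 and 0.00976. Without control replicate 1, 2 of the 6 genes were called higher with each form, in a fit that called 6.99% and 8.65% of all genes higher. Between the forms 0 of 6 passed in limma and 1 had an unadjusted p under 0.05; ANAPC2, the cullin of the catalytic module, differed most (-0.28, adjusted p = 0.787). That value rests on G-form replicate 2, at 99.2 against 47.8 to 70.9 on the other arrays, and without it the difference was -0.05. ANAPC11, the RING subunit that works with it, was at 0.00 and -0.12 against control, neither past the threshold (adjusted p = 0.996 and 0.644).

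Among 13 measured ubiquitin-conjugating enzymes, checkpoint proteins and inhibitors that act on the complex, 1 was called in each comparison with control, BUB1B (BUBR1), a protein of the mitotic checkpoint complex, where 3.33% and 4.62% of all genes were called in A-form and G-form cells. Its signals were 229.5, 242 and 233 in A-form cells, 249, 282 and 266 in G-form cells, and 138, 168 and 193 in control cells. All treated arrays were higher than all controls. BUB1B rose by 0.47 in A-form cells (SE 0.11, limma adjusted p = 0.0499). In G-form cells it rose by 0.62 (SE 0.11, adjusted p = 0.0114). In the fit over probe sets it missed the threshold in A-form cells (limma adjusted p = 0.0673) and passed in G-form cells (0.0156). The call in A-form cells ended when any array other than control replicates 1 and 3 was left out (adjusted p = 0.0923 to 0.211), and in 13 of the 18 alternatives in all. The call in G-form cells ended without G-form replicate 2 (0.0763) or 3 (0.0527) and with only the 6 arrays compared (0.0867).

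The counts for these 13 genes depended on control replicate 1: without it 4 were higher in A-form cells and 5 in G-form cells, with 0 lower, and 1 was lower in A-form cells than in G-form cells. That fit called more of all genes as well, 6.99% and 8.65% higher against control and 4.68% lower between the forms. With all arrays, limma gave an unadjusted p under 0.05 against control for 2 of the 13 in A-form cells and 6 in G-form cells. How many of all genes reached that level was not counted, so these counts have no background. Above 0 were 10 in A-form cells (3 below) and 12 in G-form cells (1 below), beside 51.3% and 51.4% of all genes. Between the forms 0 of 13 passed in limma, with 1 unadjusted p under 0.05. FBXO5 (EMI1), an inhibitor of the complex, differed most there (-0.47, adjusted p = 0.526). Against control the probe sets of FBXO5 had the same sign and differed in the call. The brightest was 0.38 and 0.85 above control in A-form cells and G-form cells without passing. The other rose by 0.49 and 0.68 in the fit over probe sets (limma adjusted p = 0.0419 and 0.00653). Its identifier carries the suffix described for the dimmer CDC23 set. UBE2C, the enzyme that starts ubiquitin chains with the complex, was 0.26 and 0.21 above control in A-form cells and G-form cells without passing (limma adjusted p = 0.299 and 0.350), and its highest array was control replicate 1, at 2201.

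Of 25 substrates of the complex, all were measured, and 4 were called in each comparison with control. CCNA2, cyclin A2, was at 533, 538 and 518.5 in A-form cells, 581, 603 and 614 in G-form cells, and 171, 191 and 234 in control cells, 2.53-fold and 2.84-fold higher in the treated groups (1.34 and 1.51 on the log2 scale, SE 0.10 each, limma adjusted p = 9.44e-05 and 8.30e-05). A second CCNA2 probe set gave 1.51 and 1.81. GMNN, geminin, which blocks a further round of DNA replication, was at 591, 563 and 592 in A-form cells, 633, 627 and 629.6 in G-form cells, and 209.9, 314 and 312 in control cells. It rose by 1.02 and 1.13 (SE 0.12 each, limma adjusted p = 0.00127 and 0.000696). For both genes the treated and control arrays were far apart.

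CDCA3, a trigger of entry into mitosis, rose by 0.60 in A-form cells and 0.69 in G-form cells (limma adjusted p = 0.0127 and 0.00536), and a second probe set by 0.97 and 1.09. Leaving out A-form replicate 1 or 3 ended the first of these calls (adjusted p = 0.0802 and 0.0744), as did a fit of only the 6 arrays compared (0.0743). CCNB2, cyclin B2, rose by 0.50 in G-form cells (adjusted p = 0.00381 in limma) and was 0.27 above control in A-form cells without passing (0.0819). In A-form cells 3 of the 25 were higher and 1 lower, and in G-form cells 4 were higher and 0 lower, where limma called 1.95% and 2.5% of all genes higher and 1.38% and 2.12% lower. The median over the list was 0.10 in A-form cells and 0.26 in G-form cells (all genes: 0.01 in each). Of the 25, 8 in A-form cells and 12 in G-form cells had an unadjusted p under 0.05 in limma. The share of all genes at that level was not counted, so these counts have no background. Above 0 were 19 in A-form cells (6 below) and 22 in G-form cells (3 below). Among all genes 51.3% and 51.4% were above 0. The list was not tested as a set. Without control replicate 1, limma called 11 higher and 1 lower in A-form cells, and 13 higher and 0 lower in G-form cells. That fit called 6.99% and 8.65% of all genes higher. Between the forms 4 were then lower in A-form cells (4.68% of all genes in that fit, against 1.24% with all arrays).

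The gene that was lower was SKP2, a substrate that is itself an F-box subunit of another ubiquitin ligase. Its signals were 237, 107 and 89.7 in A-form cells, 285.5, 329 and 354 in G-form cells, and 301, 321 and 491 in control cells. All A-form arrays were below all others, and A-form replicate 1 was far above the other A-form arrays. SKP2 fell by 1.37 (SE 0.29) in A-form cells (limma adjusted p = 0.0309) and was -0.21 from control in G-form cells (adjusted p = 0.772). Its other probe sets gave -0.67 (limma adjusted p = 0.0206 in the fit over probe sets) and -0.57 (0.180) in A-form cells, smaller differences of the same sign. The brightest SKP2 set carries the suffix described for the dimmer CDC23 set, and the others do not. The fall did not pass with 7 of the 9 single arrays left out, all but A-form replicate 1 and control replicate 1 (adjusted p = 0.0511 to 0.152). Between the forms 0 of the 25 substrates passed in limma and 2 had an unadjusted p under 0.05; SKP2 differed most (-1.16, adjusted p = 0.0753), and it passed without A-form replicate 1 (0.00951) or control replicate 1 (0.0178), with only the 6 arrays compared (0.0209), with array weights (0.00141) and with averaged probe sets (0.00627). In the fit over probe sets its other sets were -0.59 (limma adjusted p = 0.0456) and -0.75 (0.0894) between the forms, so 1 of them passed with all arrays.

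**Figure D4:**
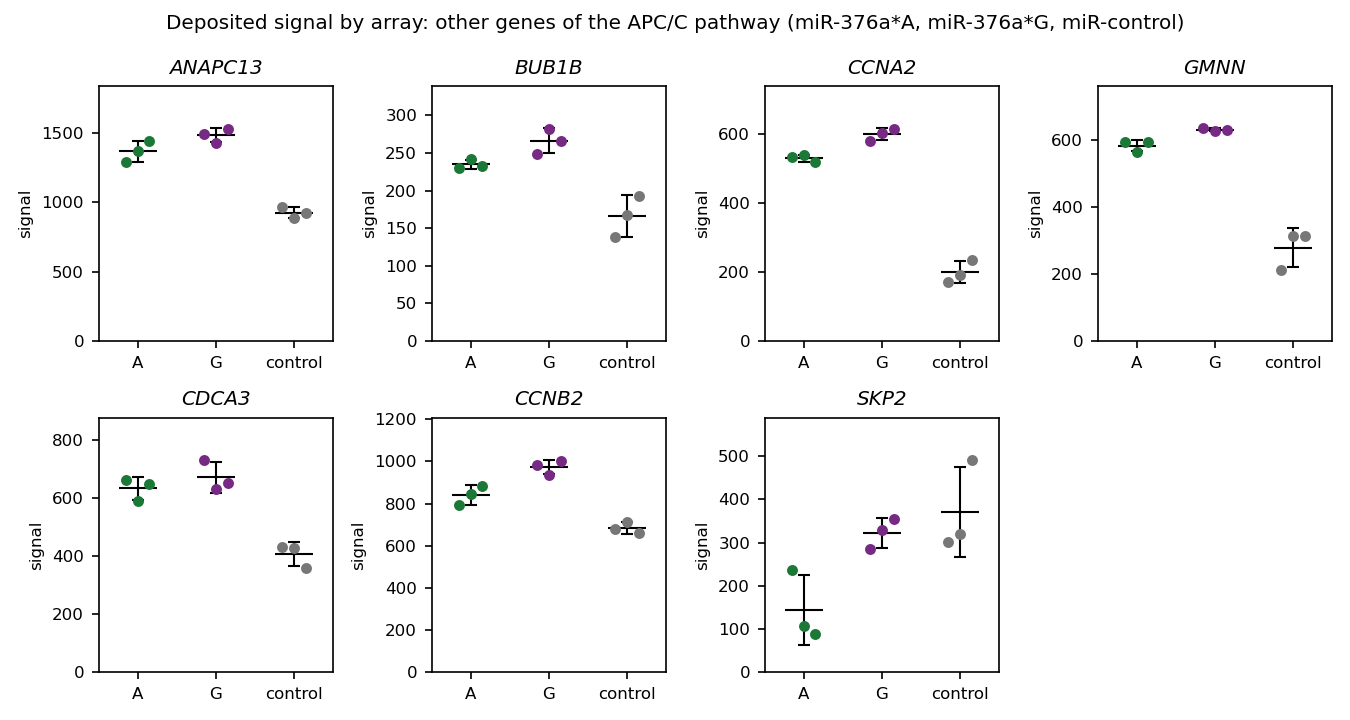
Deposited signal on each of the 9 arrays (vertical axis, signal units, from 0; scales differ between panels) for the 7 further genes of the pathway that were called, by transfection (A, G, control); points are arrays, the horizontal bar is the mean and the error bar the SD of 3 arrays. ANAPC13, BUB1B, CCNA2, GMNN, CDCA3 and CCNB2 are higher on every treated array than on every control array, and SKP2 is lower on the A-form arrays.

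The genes whose pattern was most like that of CDC26 lay outside the complex, by a rule that no partner could meet, since the SD of each partner was 0.335 or less. Over the 9 arrays, the highest Pearson correlations with CDC26 among 357 genes with an SD of at least 0.5 were those of RIDA (0.994), an enzyme that removes reactive imines, GPR157 (0.987), a G protein-coupled receptor, IMPA2 (0.978), an inositol monophosphatase, CYB5R4 (0.972), a cytochrome b5 reductase, and EML4 (0.967), a microtubule-binding protein. These values rest on the gap between the G-form arrays and the other 6. They are given as a description, since the genes were picked for them and share arrays and normalization.

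RIDA had signals of 435, 464 and 490.3 in A-form cells, 173, 159 and 172 in G-form cells, and 452, 435 and 386 in control cells. Like CDC26 it was low on the G-form arrays and overlapped between the other groups. In the same order of comparisons (A-form cells and G-form cells against control, then A-form cells against G-form cells) the differences were 0.11, -1.29 and 1.39 for RIDA and -0.15, -1.44 and 1.29 for GPR157. Those of IMPA2 were 0.03, -1.07 and 1.10, those of CYB5R4 -0.10, -1.25 and 1.15, and those of EML4 0.12, -1.16 and 1.28. A second CYB5R4 probe set gave -0.23 in G-form cells against control, and the 6 other EML4 sets gave between -1.07 and 0.08, so the fall was not seen by every probe set of these genes.

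Among the genes of the complex the correlation with CDC26 over the same 9 arrays was highest for CDC27 (0.479) and lowest for ANAPC10 (-0.164). The SD of CDC27 over the arrays was 0.10 on the log2 scale, so this correlation describes small differences.

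**Figure D5:**
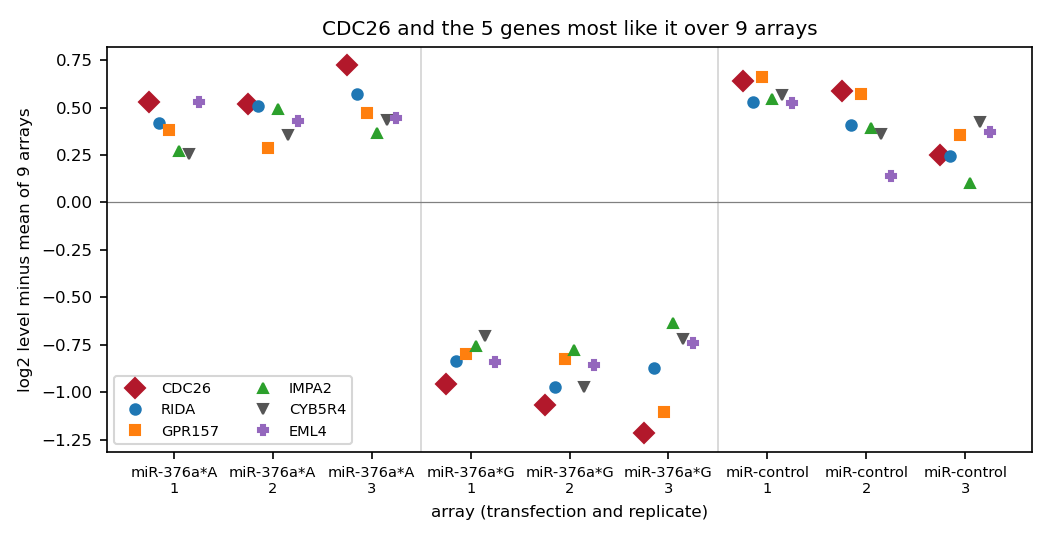
Log2 level of CDC26 and of the 5 genes most like it on each array, as the difference from the gene's mean over the 9 arrays (vertical axis, log2 units); each marker is a gene on an array, and arrays are ordered by transfection. All 6 genes lie below 0 on the 3 G-form arrays and above 0 on the other 6.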

How the data were processed

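Total RNA of 9 cultures was hybridised to 1-colour Affymetrix arrays, 1 array per culture and 3 per group. The authors deposited 1 intensity per probe set and array, on a linear scale, and in the deposited values each array has the same mean after trimming 2% at each end. The submitters' processing notes name GCOS 1.4.0.036. How probes were summarised, the background correction and the genome build are not stated there. Of 54675 probe sets, 41097 carry 1 gene symbol, 1801 several and 11777 none in the platform annotation. Only those with 1 symbol were used to name genes.

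Signals were taken as log2(signal + 16) and quantile normalized, because array medians spread over 0.20 log2 units. Probe sets with a mean below the 50th percentile (a log2 level of 5.17) were dropped, and the brightest probe set that was left stood for its gene. All 3 groups entered one limma fit (limma 3.58.1, R 4.3.3; lmFit, then eBayes with trend) over 12505 genes, and a further fit over 27338 probe sets. p-values were Benjamini-Hochberg adjusted over all features of a fit, with a threshold of 0.05. They measure the spread between these cultures. The share of all features with an unadjusted p under 0.05 was not counted, so counts at that level have no background here. The number of arrays limits the precision, and an exact permutation test of 3 against 3 arrays cannot go below 0.10. The procedure was also run on simulated data with changes of known size, and the outcome is not given here.

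Members and gene lists (other subunits, enzymes and inhibitors, substrates, markers) were chosen with earlier results of these data known, so their counts are no independent evidence. All members were named, along with every called gene of a list, or the gene with the largest difference where none was called, and the 5 genes most correlated with CDC26. UBE2C, ANAPC11 and a second gene or probe set mentioned beside these were added after their values were seen. Same-numbered arrays had r of 0.156, 0.187 and 0.125 between G-form and control cells, and of -0.361 to 0.032 in the other comparisons. Differently numbered arrays reached 0.14 between G-form and control cells, 0.371 between A-form and control cells and 0.207 between the forms. These values do not settle whether the numbers pair the arrays. The labels do not say what the numbers share. The alternatives were other normalizations, offsets and filters, array weights, a replicate block, averaged probe sets and each array left out.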

Additional observations from a re-analysis of the deposited data

How the results depend on the processing

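The 2 large differences of CDC26 kept their sign in all 18 alternatives, and its small difference between A-form and control cells ran from -0.023 to 0.170 over left-out arrays. With log2(signal + 64) it was -1.40 for G-form cells against control and 1.49 between the forms. Called members other than CDC26 numbered 0 in most alternatives. With array weights 1 was called in A-form cells and 1 in G-form cells, both ANAPC5. That fit called 2315 and 2427 of all 12505 genes. Over left-out arrays the count in G-form cells ran from 0 to 1. Called probe sets in A-form cells were 1 with log2(signal + 64) and with array weights, and 0 to 1 over left-out arrays. In G-form cells they were 0 without a filter, with only the 6 arrays compared and with the replicate block. They were 3 with array weights, and 0 to 3 over left-out arrays. Shares of all probe sets called were counted only for the reported fit and the fit without control replicate 1. With the replicate block BUB1B (adjusted p = 0.101) and SKP2 (0.0727) no longer passed in limma for A-form cells, where same-numbered arrays did not deviate together. BUB1B in A-form cells also missed the threshold with median centring (0.0841), no normalization (0.0753), log2(signal + 64) (0.0505), no filter (0.0592) and only the 6 arrays compared (0.194), and SKP2 with no filter (0.0634) and only the 6 arrays (0.131). Signs turned in the following cases, none of them past the threshold under the alternative named. Between the forms, averaging probe sets gave -0.045 for ANAPC10, -0.008 for ANAPC4, -0.028 for ANAPC7, 0.013 for CDC16, -0.039 for CDC23 and -0.003 for FZR1. Against control it gave 0.439 and 0.479 for CDC23 in A-form cells and G-form cells, -0.041 and -0.038 for FZR1, and 0.168 for CDC27 in G-form cells. Array weights gave -0.023 for ANAPC4 and -0.047 for FZR1 between the forms. Median centring gave 0.069 and 0.020 for ANAPC5 in A-form cells and G-form cells, and 0.037 for CDC27 in G-form cells. Over left-out arrays the ranges between the forms were -0.012 to 0.199 for ANAPC10, -0.079 to 0.105 for ANAPC4 and -0.176 to 0.232 for FZR1. Against control they were -0.189 to 0.044 for ANAPC5 and -0.148 to 0.301 for FZR1 in A-form cells, and -0.219 to 0.012 for ANAPC5, -0.006 to 0.174 for ANAPC7 and -0.17 to 0.266 for FZR1 in G-form cells. Over all alternatives, the count of all genes called ran from 156 to 2315 in A-form cells, from 204 to 2427 in G-form cells and from 144 to 1656 between the forms, against 417, 578 and 329 as reported. Without control replicate 1 they were 1676, 2153 and 1228, and with the replicate block 360 in G-form cells. The causes were not tested.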
